A study of Mus musculus with 6 samples.

Results

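Transcripts of 10 heat shock proteins and co-chaperones (Hspa1a, Hspa1b, Hsph1, Dnajb1, Hsp90aa1, Hspa8, Hspb1, Hspd1, Bag3 and Cryab) were followed in mouse aorta after inducible deletion of Srf. The genes were taken by name from a count table of 55453 genes, and all 10 were present and abundant enough to be tested. Each library came from the stripped aorta of 1 mouse. The 2 KO libraries (replicates 2 and 3) came from mice homozygous for a floxed Srf allele. The 3 Ctrl libraries (replicates 1 to 3) came from mice heterozygous for it. Every mouse in both groups also carried Itga8-CreERT2, a tamoxifen-activated Cre recombinase under the control of Itga8, an integrin gene of smooth muscle, and received 5 daily intraperitoneal injections of 33 mg/kg tamoxifen. Aortae, from the descending arch to the level of the kidneys, were taken 10 days after the last injection. The Ctrl mice therefore also underwent Cre activation and could lose 1 copy of Srf in smooth muscle cells. A further KO sample in the labels was not analysed here, and the design text says that 1 homozygous animal was set aside as an outlier.

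Heat shock proteins are molecular chaperones that hold, fold or disaggregate other proteins. HSP70 proteins (Hspa1a, Hspa1b and Hspa8) work in cycles with J-domain partners such as Dnajb1 and with nucleotide exchange factors such as Hsph1 and Bag3, while HSP90 (Hsp90aa1) completes the folding of kinases and steroid receptors. Small heat shock proteins (Hspb1 and Cryab) bind unfolding clients without ATP and are plentiful in muscle, where Hspb1 also takes part in actin dynamics. Hspd1 is the chaperonin of the mitochondrial matrix. Under stress, heat shock factor 1 binds heat shock elements, arrays of GAA units in alternating orientation, and raises the inducible members within minutes.

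The sequences below are shown because the genes with the widest range among Ctrl libraries, Hspa1a, Hspa1b, Hspb1 and Hsph1, and the mitochondrial Hspd1 all carry heat shock element letters near their start sites. Each is the stretch of 150 bases that ends just before an annotated start site (RefSeq, GRCm38.p6), given 5′ to 3′ on the gene's strand. Capitals mark every match to GAANNTTC or TTCNNGAA, both of which read the same on either strand.
Hspa1a: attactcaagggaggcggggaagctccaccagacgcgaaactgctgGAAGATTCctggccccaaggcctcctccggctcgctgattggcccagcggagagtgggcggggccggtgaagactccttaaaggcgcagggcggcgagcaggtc
Hspa1b: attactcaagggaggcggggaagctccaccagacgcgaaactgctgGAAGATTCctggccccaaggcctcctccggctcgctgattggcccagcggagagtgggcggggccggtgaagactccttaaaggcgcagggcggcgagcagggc
Hspb1: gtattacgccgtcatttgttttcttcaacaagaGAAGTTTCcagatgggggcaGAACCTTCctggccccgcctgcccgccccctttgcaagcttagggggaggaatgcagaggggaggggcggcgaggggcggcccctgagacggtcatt
Hsph1: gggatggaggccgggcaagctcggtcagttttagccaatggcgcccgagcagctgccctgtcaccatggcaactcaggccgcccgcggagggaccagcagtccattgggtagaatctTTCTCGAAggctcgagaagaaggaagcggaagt
Hspd1: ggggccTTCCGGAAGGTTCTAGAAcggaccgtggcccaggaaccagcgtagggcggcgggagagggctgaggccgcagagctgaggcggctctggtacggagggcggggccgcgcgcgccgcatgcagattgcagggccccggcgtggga

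These stretches lie at chr17:34972157-34972306 (minus strand) for Hspa1a, chr17:34959239-34959388 (minus) for Hspa1b, chr5:135887769-135887918 (plus) for Hspb1, chr5:149636337-149636486 (minus) for Hsph1 and chr1:55087933-55088082 (minus) for Hspd1. The Hspa1a and Hspa1b stretches are identical at 149 of 150 bases. In Hspd1 the matches overlap into 1 run, in which GAA and TTC units alternate with a spacing of 2 bases. Hsph1 and Hspd1 each have a further annotated start site, and the Hspd1 window at that other site holds none of these letters. That other Hspd1 site is the 5′ end of the annotated gene (position 55088243). The Hspd1 stretch shown lies inside the gene, downstream of that end.

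Promoter windows of 300 bases (250 before the start site and 50 after) were listed for 7 of the 10 genes, in 10 windows. Hspa8, Hsp90aa1 and Cryab had no listed window and were not searched. GAANNTTC or TTCNNGAA occurred in 7 of those windows, belonging to 6 genes, against 15.1% of all 32851 listed windows. Runs of 3 such alternating units, searched on both strands, occurred in 3 windows, of Hsph1 and Hspd1, against 0.603% of all windows. Each such run contains both shorter elements. The Hsph1 run began at position 16 or 37, depending on the start site counted from, and so lies beyond the stretch shown. In Bag3 the match to GAANNTTC began at position 43 counted from the start site, and the Dnajb1 windows held neither element. Bag3 had the narrowest Ctrl range of the 10 genes (highest over lowest library 1.17). Whether such elements go with a wide range was not tested. The unsearched Hsp90aa1 and Hspa8 had ranges of 2.29 and 2.07. No window of the 7 genes held a CArG box, the motif of serum response factor, which occurred in 1.63% of all windows. These matches describe letters and not bound sites.

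The libraries held 27685188 and 31873243 counts in KO and 32142058, 34311855 and 26177821 counts in Ctrl. The smallest count behind any value of the 10 genes was 632 (Dnajb1 in KO replicate 2), so reading depth limits these values less than the number of mice. Srf itself stood at 45.0 and 38.6 CPM in KO libraries, against 56.1, 64.4 and 68.3 CPM in Ctrl libraries. CPM values here include TMM scaling, a correction for library composition. The smooth muscle markers, led by Myh11 (smooth muscle myosin heavy chain), summed to 16530 and 15970 CPM in KO and to 27150 to 28840 CPM in Ctrl libraries, with 10 of 10 markers measured. Despite the stripping, markers of endothelium (419 to 1160 CPM in KO and 769 to 1016 CPM in Ctrl, led by Vwf) and of fibroblasts (5155 to 5316 CPM in KO and 3590 to 5524 CPM in Ctrl, led by Col1a1) were present. In bulk tissue, fewer cells of a type and less RNA per cell cannot be told apart.

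Levels between genes were compared per kilobase of annotated exon. Close ranks depend on the length used (1.031 kb for Hspb1, 4.301 kb for Hspa8 and 7.266 kb for Hsph1), and which transcripts were expressed was not tested. In KO libraries the order by mean was Hspa8 (121 CPM per kb), Hspb1 (72.7), Hspd1 (53.9), Cryab (52.8), Hsp90aa1 (33.1), Bag3 (20.8), Hsph1 (12.3), Hspa1a (10.8), Hspa1b (10.3) and Dnajb1 (7.35). In Ctrl libraries Hspb1 (171 CPM per kb) and Hspa8 (167) led, followed by Cryab (61.9), Hsp90aa1 (50.5), Hspd1 (45.4), Bag3 (22.4), Hspa1b (20.04), Hsph1 (17.9), Hspa1a (17.2) and Dnajb1 (9.80). The constitutive Hspa8 thus exceeded the inducible Hspa1a and Hspa1b in every library. Hspd1 and Cryab, neighbours in KO, did not separate there, at 51.9 and 55.9 against 49.3 and 56.3 CPM per kb. The order of Hspa8 and Hspb1 differed within Ctrl: Hspb1 was higher per kb only in replicate 2 (303 against 224 CPM per kb).

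None of the 10 genes differed between KO and Ctrl at an adjusted p under 0.05 in edgeR's quasi-likelihood test, which called 0 of 18192 genes higher (0%) and 0 lower (0%). At an unadjusted p under 0.05 edgeR gave 1 of the 10 (Hspb1, lower), against 9.04% of all genes higher and 6.75% lower. DESeq2 called 0 of the 10, against 3.35% of genes higher and 2.62% lower, and limma-voom called 0 of the 10, against 0% higher and 0.0055% lower. The fold changes pointed to lower values in KO for 9 genes, against 52.8% of all genes, and to a higher value for 1 gene, Hspd1, against 47.2%. Their median log2 fold change was -0.51, against -0.02 over all genes tested. KO libraries all lay below Ctrl libraries for 2 genes (Dnajb1 and Hspb1), against 18.2% of all genes, and all above for 0 genes, against 17.4%.

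**Figure D1:**
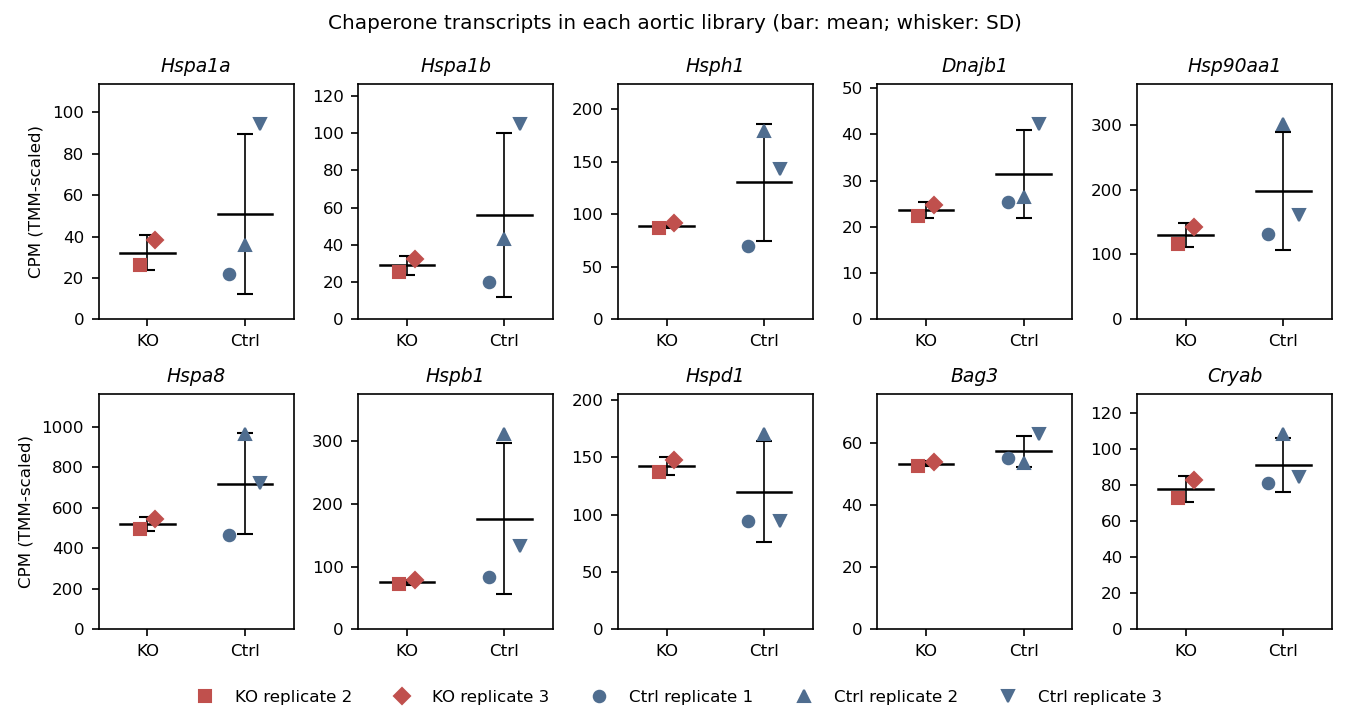
TMM-scaled CPM (linear axis from 0) of the 10 genes in 2 KO libraries (red, left) and 3 Ctrl libraries (blue, right), with the group mean as a bar and the SD as whiskers. The KO points lie close together near the lowest Ctrl library in most panels, while Ctrl replicate 2 or 3 stands highest in every panel.

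The inducible HSP70 genes Hspa1a and Hspa1b, a tandem pair on chromosome 17 (34969190 to 34972156 and 34956436 to 34959238, minus strand, 1 exon each), had the widest range among Ctrl mice. Hspa1a stood at 26.2 and 38.2 CPM in KO and at 22.02, 36.0 and 94.6 CPM in Ctrl libraries (replicates 1, 2 and 3). Hspa1b stood at 25.4 and 32.5 CPM in KO and at 20.1, 43.3 and 105 CPM in Ctrl libraries. For both genes Ctrl replicate 3 was far above the other libraries, Ctrl replicate 1 was the lowest of all, and the groups overlapped. Hspa1b averaged 28.9 ± 5.01 CPM in KO (SD, n = 2) and 56.2 ± 43.9 CPM in Ctrl (SD, n = 3). The log2 fold change was -0.66 for Hspa1a (SE 0.562, edgeR adjusted p = 0.628, 95% interval -1.98 to 0.67) and -0.95 for Hspa1b (SE 0.603, edgeR adjusted p = 0.501, 95% interval -2.38 to 0.47).

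Both fold changes rested on Ctrl replicate 3. Without that library Hspa1a turned to 0.17 and Hspa1b came to -0.12 on the log2 scale. The genes have 56.5% (Hspa1a) and 49.9% (Hspa1b) of their 100-base words in common with another gene, mostly with each other, so the split of reads between them is uncertain. Hspa1a also overlaps the gene Gm20481 on the opposite strand over 2225 bases. Their summed counts gave 51.5 and 70.7 CPM in KO and 42.1, 79.3 and 199.7 CPM in Ctrl libraries, with a log2 fold change of -0.81 (SE 0.58, edgeR adjusted p = 0.559).

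Hspa8, the constitutive HSP70 of the cytosol (chromosome 9, 40800984 to 40810087), was the most abundant of the 10 by CPM. It stood at 496 and 544 CPM in KO and at 467, 965 and 721 CPM in Ctrl libraries. Both KO libraries lay between Ctrl replicates 1 and 3, while Ctrl replicate 2 was highest. KO over Ctrl gave a log2 fold change of -0.47 (SE 0.274, edgeR adjusted p = 0.47, 95% interval -1.11 to 0.18), and -0.18 without Ctrl replicate 2. Of its 100-base words 28.5% also occur in other transcripts, chiefly of the gene Gm15459. Hspa8 also overlaps Snord14c, Snord14d and Snord14e on the same strand, over 86, 86 and 90 bases.

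Hsph1, a nucleotide exchange factor and disaggregase of the HSP110 family (chromosome 5, 149614287 to 149636376), shared no 100-base word with another gene. It stood at 87.2 and 91.1 CPM in KO and at 69.5, 179 and 142 CPM in Ctrl libraries. Both KO libraries lay just above Ctrl replicate 1 and well below the other Ctrl libraries. Its log2 fold change was -0.55 (SE 0.347, edgeR adjusted p = 0.502, 95% interval -1.37 to 0.27), -0.23 without Ctrl replicate 2 and -0.85 without Ctrl replicate 1 (adjusted p = 0.163).

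Dnajb1, the J-domain partner that delivers clients to HSP70 (chromosome 8, 83608193 to 83612653), was 1 of the genes without overlap. It stood at 22.3 and 24.8 CPM in KO and at 25.5, 26.4 and 42.3 CPM in Ctrl libraries. The gap between the groups was small, 24.8 CPM in the highest KO library against 25.5 CPM in the lowest Ctrl library, and Ctrl replicate 3 alone was high. For Dnajb1 the log2 fold change was -0.41 (SE 0.227, edgeR adjusted p = 0.44, 95% interval -0.95 to 0.13), and -0.12 without Ctrl replicate 3.

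Bag3, a co-chaperone that links HSP70 to small heat shock proteins and to autophagy of damaged filamin and other muscle proteins (chromosome 7, 128523616 to 128546981), was the steadiest of the 10. It stood at 52.7 and 53.9 CPM in KO and at 55.3, 53.7 and 63.1 CPM in Ctrl libraries. The groups overlapped by a narrow margin. Bag3 shares 612 bases with the gene 2610306O10Rik on the same strand, and the effect on its counts was not tested. Its log2 fold change was -0.11 (SE 0.101, edgeR adjusted p = 0.664), and the 95% interval of -0.35 to 0.13 was the tightest among these genes.

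Hsp90aa1, the stress-inducible HSP90 of the cytosol (chromosome 12, 110690605 to 110702728), stood at 117 and 143 CPM in KO and at 132, 302 and 161 CPM in Ctrl libraries. Ctrl replicate 2 was high and the other 4 libraries lay close together. Hsp90aa1 had a log2 fold change of -0.61 (SE 0.335, edgeR adjusted p = 0.438, 95% interval -1.40 to 0.18), and -0.16 without Ctrl replicate 2. Of its 100-base words 38% recur in other transcripts, chiefly of the gene Gm12346.

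Hspb1, the small heat shock protein HSP25 of mice (chromosome 5, 135887919 to 135889563), had the largest fold change of the 10. It stood at 72.04 and 77.8 CPM in KO and at 84.1, 312 and 133 CPM in Ctrl libraries. Both KO libraries were below every Ctrl library (77.8 CPM in the highest KO library against 84.1 CPM in the lowest Ctrl library), and Ctrl replicate 2 was 2.34 times Ctrl replicate 3. The means were 74.9 ± 4.07 CPM in KO (SD, n = 2) and 176.5 ± 120 CPM in Ctrl (SD, n = 3). The log2 fold change was -1.24 (SE 0.503, 95% interval -2.43 to -0.05), with an unadjusted p of 0.0435 and an adjusted p of 0.298 in edgeR. It was -0.52 (adjusted p = 0.375) without Ctrl replicate 2. Of its words 44% also occur in other transcripts, chiefly of the pseudogene Hsp25-ps1.

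Cryab, alpha-B crystallin (chromosome 9, 50751325 to 50756636), protects desmin and actin filaments in muscle. It stood at 73.0 and 83.2 CPM in KO and at 81.3, 109 and 84.5 CPM in Ctrl libraries. KO replicate 3 lay between Ctrl replicates 1 and 3, and Ctrl replicate 2 was again highest. The difference was -0.23 on the log2 scale (SE 0.148, edgeR adjusted p = 0.507, 95% interval -0.58 to 0.12), and -0.07 without Ctrl replicate 2. Cryab overlaps its neighbour Hspb2 over 1030 bases on the opposite strand, and the strand setting of the counting is not given in the sources used here.

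Hspd1, the HSP60 chaperonin of mitochondria (chromosome 1, 55077835 to 55088243), was the 1 gene with a fold change above 0. It stood at 137 and 148 CPM in KO and at 94.8, 171 and 94.2 CPM in Ctrl libraries. Both KO libraries were above Ctrl replicates 1 and 3, and Ctrl replicate 2 was above both KO libraries. Hspd1 had a log2 fold change of 0.25 (SE 0.26, edgeR adjusted p = 0.698, 95% interval -0.37 to 0.86). Without Ctrl replicate 2 it was 0.61 (SE 0.103), the groups did not overlap, and the edgeR adjusted p was 0.0649. Of its words 23.9% recur in other transcripts, chiefly of the pseudogene Hspd1-ps3, and its start region overlaps that of its partner Hspe1 on the opposite strand.

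**Figure D2:**
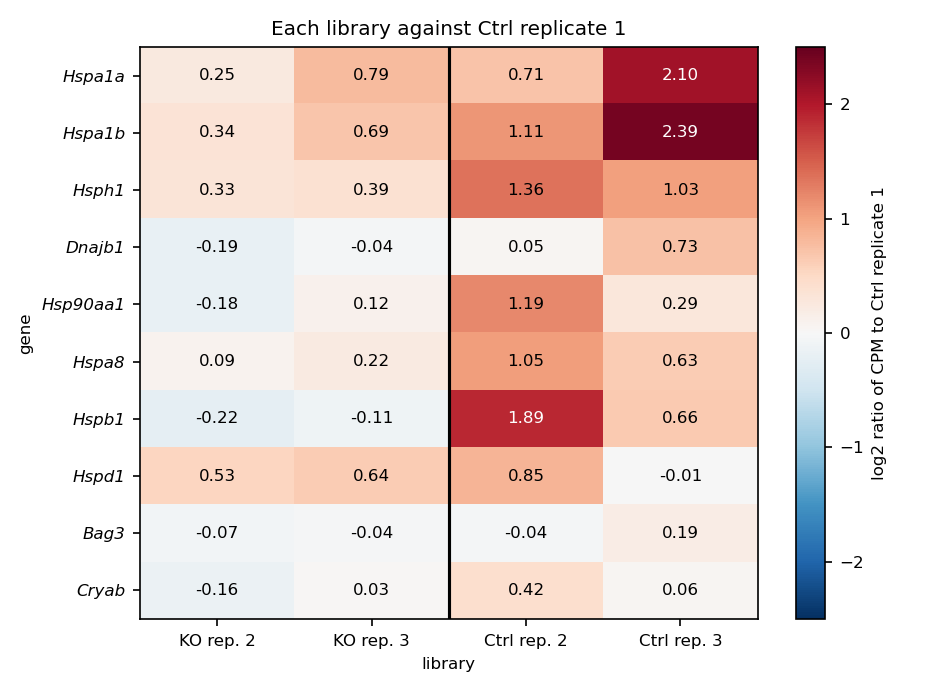
Heat map of the log2 ratio of CPM in each library to Ctrl replicate 1 (colour and number), with 1 row per gene and 1 column per library, the KO libraries left and the other Ctrl libraries right of the line. Ctrl replicate 3 stands out for Hspa1a (2.10) and Hspa1b (2.39), and Ctrl replicate 2 for Hspb1 (1.89), Hsph1 (1.36) and Hsp90aa1 (1.19).

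The Ctrl libraries differed widely among themselves. Among Ctrl libraries Ctrl replicate 1 held the lowest value of 8 of the 10 genes, against 29.7% of all genes tested. Across all 5 libraries the highest value belonged to Ctrl replicate 2 for 6 genes (16.6% of all genes) and to Ctrl replicate 3 for 4 genes (27.8% of all genes). KO libraries held the highest value of 0 of the 10 genes, against 17.9% (KO replicate 2) and 20.8% (KO replicate 3) of all genes. The median ratio of the highest to the lowest Ctrl library was 2.18 over the 10 genes and 1.27 over all genes tested. Between the KO libraries the corresponding medians were 1.10 and 1.12, over fewer libraries.

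Hspa1a, Hspa1b, Hsph1, Hspa8 and Hspb1 exceeded Ctrl replicate 1 by at least 1.54 times in both other Ctrl libraries, to unequal degrees. Ctrl replicate 2 exceeded Ctrl replicate 1 by 3.71 times for Hspb1, 2.57 times for Hsph1, 2.29 times for Hsp90aa1 and 2.07 times for Hspa8, by 2.15 times for Hspa1b and 1.64 times for Hspa1a, and by 1.04 times for Dnajb1. Ctrl replicate 3 exceeded Ctrl replicate 1 by 5.23 times for Hspa1b, 4.30 times for Hspa1a and 1.66 times for Dnajb1, by 2.05 times for Hsph1, 1.58 times for Hspb1 and 1.54 times for Hspa8, and by 1.22 times for Hsp90aa1. Among the 9662 genes with a mean of at least 10 CPM, 0.331% had a Ctrl range as wide as that of Hspa1b, 0.445% as wide as that of Hspb1 and 0.787% as wide as that of Hsph1. For Bag3 this share was 50.7%, and for Cryab 20%.

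Relative to Ctrl replicate 1, the KO libraries had median log2 ratios over the 10 genes of 0.01 (KO replicate 2) and 0.17 (KO replicate 3), while Ctrl replicates 2 and 3 had 0.95 and 0.65. The count of genes whose groups did not overlap moved with the library left out. Without Ctrl replicate 1, 7 of the 10 lay lower in KO (Hspa1b, Hsph1, Dnajb1, Hsp90aa1, Hspa8, Hspb1 and Cryab), against 24% of all genes, and 0 higher, against 24.3%. Without Ctrl replicate 2, 3 lay lower (Dnajb1, Hspb1 and Bag3), against 22.3%, and 1 higher (Hspd1), against 23.9%. Without KO replicate 3, 5 lay lower (Dnajb1, Hsp90aa1, Hspb1, Bag3 and Cryab), against 30.2%, and 0 higher, against 27.7%. Dnajb1 and Hspb1 were the 2 lower genes without Ctrl replicate 3, against 22.3% (0 higher, against 25.9%), and also without KO replicate 2, against 30% (0 higher, against 28.8%). In each of these fits 0 of the 10 passed edgeR's adjusted threshold. The median log2 fold change was -0.20 without Ctrl replicate 2, -0.19 without Ctrl replicate 3 and -0.77 without Ctrl replicate 1.

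**Figure D3:**
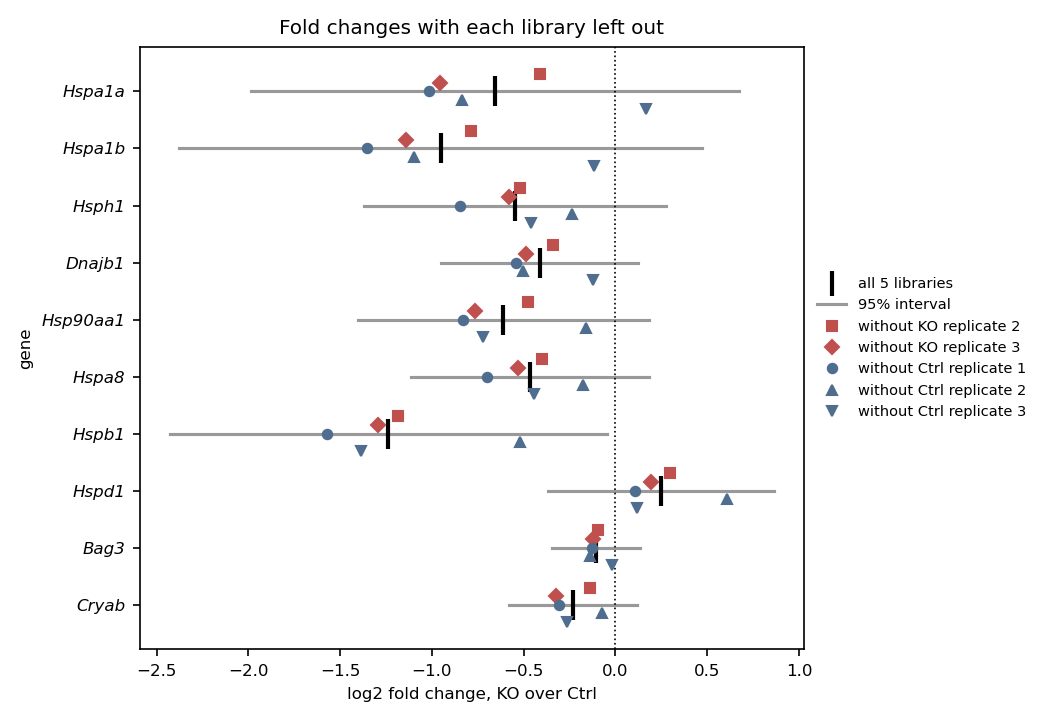
Log2 fold changes (KO over Ctrl) of the 10 genes from all 5 libraries (black ticks) with 95% intervals (grey lines) and with each library left out in turn (symbols). Omission of Ctrl replicate 3 moves Hspa1a past 0 to 0.17, and omission of Ctrl replicate 2 brings Hspb1 to -0.52.

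Other measures moved with these libraries. Erythrocyte markers (5 of 5 measured, none at 0 over all libraries, led by Hbb-bs) summed to 23.9 and 28.9 CPM in KO and to 37.9, 297 and 87.7 CPM in Ctrl libraries, so Ctrl replicates 2 and 3 led here too. Immediate-early genes, which respond within minutes to injury or dissection (15 of 15 measured, led by Dusp1), summed to 877 and 1057 CPM in KO and to 545, 691 and 917 CPM in Ctrl libraries. Ctrl replicate 1 had the lowest sum for this list as well, but the KO sums were not low. Single genes of the list differed in direction, with 9 fold changes above 0 and 6 below, against 47.2% and 52.8% of all genes. The part of blood or handling in the heat shock values was not tested.

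The remaining chaperone network was read from 8 lists of 77 other genes, of which 74 were abundant enough to test. edgeR called 0 of them at an adjusted p under 0.05, with 7 higher, against 9.04% of all genes, and 13 lower, against 6.75%, at an unadjusted p under 0.05. DESeq2 called 4 higher and 5 lower, against 3.35% and 2.62% of all genes, shares that also apply to the DESeq2 counts of each list below. The groups did not overlap for 10 genes higher and 25 genes lower in KO, against 17.4% and 18.2% of all genes.

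Among other HSP70 and HSP110 proteins (8 of 8 tested, median log2 fold change -0.12, DESeq2 0 higher and 1 lower), Hspa2, known for its role in sperm development, was the DESeq2 call. It stood at 28.7 and 33.2 CPM in KO and at 50.2, 38.8 and 41.9 CPM in Ctrl libraries (log2 fold change -0.50, SE 0.137; DESeq2 adjusted p = 0.0448). Hspa12a gave 0.42 (SE 0.121) and the abundant exchange factor Hspa4 gave -0.09 (SE 0.112). Hspa4l, a relative of Hsph1, gave -0.45 (SE 0.341), and its Ctrl libraries at 40.4, 95.8 and 51.2 CPM again had replicate 2 on top, against 41.6 and 49.9 CPM in KO libraries.

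HSP90 and its co-chaperones (14 of 14 tested) had a median log2 fold change of -0.26. Of the 14, 8 were highest in Ctrl replicate 2, against 16.6% of all genes, and DESeq2 called 1 higher and 1 lower. Hsp90ab1, the constitutive HSP90, stood at 507 and 531 CPM in KO and at 579, 988 and 556 CPM in Ctrl libraries (log2 fold change -0.45, SE 0.252, edgeR adjusted p = 0.449). Unc45a and Unc45b, which fold myosin heads together with HSP90, had fold changes of opposite sign. Unc45a, the general form, stood at 85.7 and 88.7 CPM in KO and at 125, 125 and 118 CPM in Ctrl libraries, with a log2 fold change of -0.49 (SE 0.0881, edgeR adjusted p = 0.104, DESeq2 adjusted p = 0.000162). This difference exceeded the spread among Ctrl libraries. Unc45b, the striated muscle form, stood at 8.91 and 10.4 CPM in KO and at 6.18, 4.86 and 2.94 CPM in Ctrl libraries (log2 fold change 1.05, SE 0.284; edgeR adjusted p = 0.163, DESeq2 adjusted p = 0.0207). Skeletal muscle markers (12 of 12 measured, led by Myh1) ordered the libraries in the same way, with sums of 1010 and 2734 CPM in KO and of 683, 326 and 11.0 CPM in Ctrl libraries. Of these, Myh4 and Pvalb had no counts in Ctrl replicate 3. The part of skeletal muscle RNA in the Unc45b values was not tested. Cardiomyocyte markers, led by Myh6, summed to 28.5 and 49.1 CPM in KO and to 18.8 to 29.7 CPM in Ctrl libraries, with 7 of 8 tested.

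Of the other J-domain proteins (15 of 15 tested, median -0.07, DESeq2 0 higher and 1 lower), Dnajb5 was the DESeq2 call. It stood at 59.2 and 68.2 CPM in KO and at 75.2, 98.7 and 118 CPM in Ctrl libraries (log2 fold change -0.61, SE 0.188; DESeq2 adjusted p = 0.0485, edgeR adjusted p = 0.202). Dnajb4, a cytosolic J-domain protein abundant in muscle, gave -0.63 (SE 0.325), with 149 and 214 CPM in KO and 184, 255 and 405 CPM in Ctrl libraries. Ctrl replicate 3 was highest for Dnajb4 and Dnajb5, as it was for Dnajb1. Dnajc8, linked to splicing, gave -0.26 (SE 0.1) and the endosomal Dnajc13 gave -0.03 (SE 0.095).

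Small heat shock proteins other than Hspb1 and Cryab were measured for 5 of 8 listed genes, since Hspb9 and Cryaa had no counts and Hspb3 had 32 over all libraries. DESeq2 called 0 of the 5 (3.35% of all genes higher and 2.62% lower). At an unadjusted p under 0.05 edgeR gave 2 of the 5 lower and 0 higher, against 6.75% and 9.04% of all genes. Their median log2 fold change was -0.20. Hspb8, the partner of Bag3 in chaperone-assisted autophagy, stood at 83.4 and 95.3 CPM in KO and at 104, 122 and 106 CPM in Ctrl libraries (log2 fold change -0.30, SE 0.114, edgeR adjusted p = 0.266). Hspb7, the most abundant of them by CPM, gave -0.09 (SE 0.19), and Hspb2 gave -0.31 (SE 0.118).

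BAG proteins and other HSP70 cofactors (9 of 9 tested) had a median log2 fold change of -0.15, with DESeq2 calling 1 higher and 2 lower. Synpo2, a Z-disc and actin protein that acts with Bag3, stood at 748 and 817 CPM in KO and at 1386, 1384 and 1259 CPM in Ctrl libraries. Its log2 fold change was -0.78 (SE 0.109, edgeR adjusted p = 0.104, DESeq2 adjusted p = 1.15e-09). Synpo2 also stands among the smooth muscle markers, all 10 of which DESeq2 called lower. Bag2 was the other DESeq2 call below 0 (log2 fold change -0.60). Bag4 gave 0.47 (SE 0.116; DESeq2 adjusted p = 0.0379), with 23.3 and 25.6 CPM in KO and 19.0, 18.1 and 15.8 CPM in Ctrl libraries, and Bag6 gave -0.15 (SE 0.0987).

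Mitochondrial chaperones mostly shared the sign of Hspd1. Of 10 tested, 9 had fold changes above 0, against 47.2% of all genes, with a median of 0.20. Of the 10, 7 lay wholly above Ctrl, against 17.4% of all genes, and 0 wholly below. DESeq2 called 2 higher and 0 lower. Separation of the groups was not particular to this list. Among HSP90 and its co-chaperones 8 of 14 lay wholly below Ctrl (1 above), against 18.2% of all genes. The same held for 5 of 9 BAG proteins and cofactors (1 above) and 5 of 8 genes of the cytosolic chaperonin TRiC (0 above). Hspa9, the HSP70 of the matrix, stood at 301 and 317 CPM in KO and at 188, 260 and 185 CPM in Ctrl libraries (log2 fold change 0.55, SE 0.161; edgeR adjusted p = 0.184, DESeq2 adjusted p = 0.0424). Its J-domain partner Dnaja3 stood at 72.4 and 69.9 CPM in KO and at 43.4, 57.4 and 41.7 CPM in Ctrl libraries (log2 fold change 0.58, SE 0.147; edgeR adjusted p = 0.146, DESeq2 adjusted p = 0.0233). Lonp1, the matrix protease, gave 0.19 (SE 0.0895). Hspe1, the co-chaperonin that caps HSP60 and shares a start region with Hspd1, gave 0.02, and its libraries overlapped.

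Brown adipocyte markers, from a tissue rich in mitochondria (8 of 8 measured, none at 0 over all libraries, led by Ucp1), summed to 1104 and 1031 CPM in KO and to 355, 697 and 268 CPM in Ctrl libraries. Adipocyte markers, led by Fabp4, summed to 3453 and 3844 CPM in KO and to 1866, 2919 and 1904 CPM in Ctrl libraries. For both lists Ctrl replicate 2 was the highest Ctrl library, as for Hspd1, Hspa9 and Dnaja3. Macrophage markers, led by Lyz2, summed to 438 and 580 CPM in KO and to 316, 269 and 377 CPM in Ctrl libraries. The part of fat or macrophage RNA in the mitochondrial chaperone values was not tested.

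The cytosolic chaperonin TRiC, which folds actin and tubulin, had 8 of 8 subunit genes with fold changes below 0 (median -0.18), against 52.8% of all genes. All 8 were highest in Ctrl replicate 2, against 16.6% of all genes, and 5 of the 8 lay wholly below Ctrl, against 18.2%. DESeq2 called 0 of the 8. Cct7 stood at 74.1 and 82.7 CPM in KO and at 90.9, 121 and 91.2 CPM in Ctrl libraries (log2 fold change -0.37, SE 0.15, edgeR adjusted p = 0.301). Tcp1 gave -0.29 (SE 0.119) and Cct5 -0.18 (SE 0.0981). Among the heat shock factors and their regulator (5 of 5 tested, median -0.01, DESeq2 0 calls), Hsf1 stood at 44.7 and 40.5 CPM in KO and at 47.9, 49.3 and 59.2 CPM in Ctrl libraries (log2 fold change -0.29, SE 0.12, edgeR adjusted p = 0.304). Hsbp1, which binds Hsf1, gave -0.01 (SE 0.111), and Hsf5 was below 0.5 CPM in all 5 libraries.

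**Figure D4:**
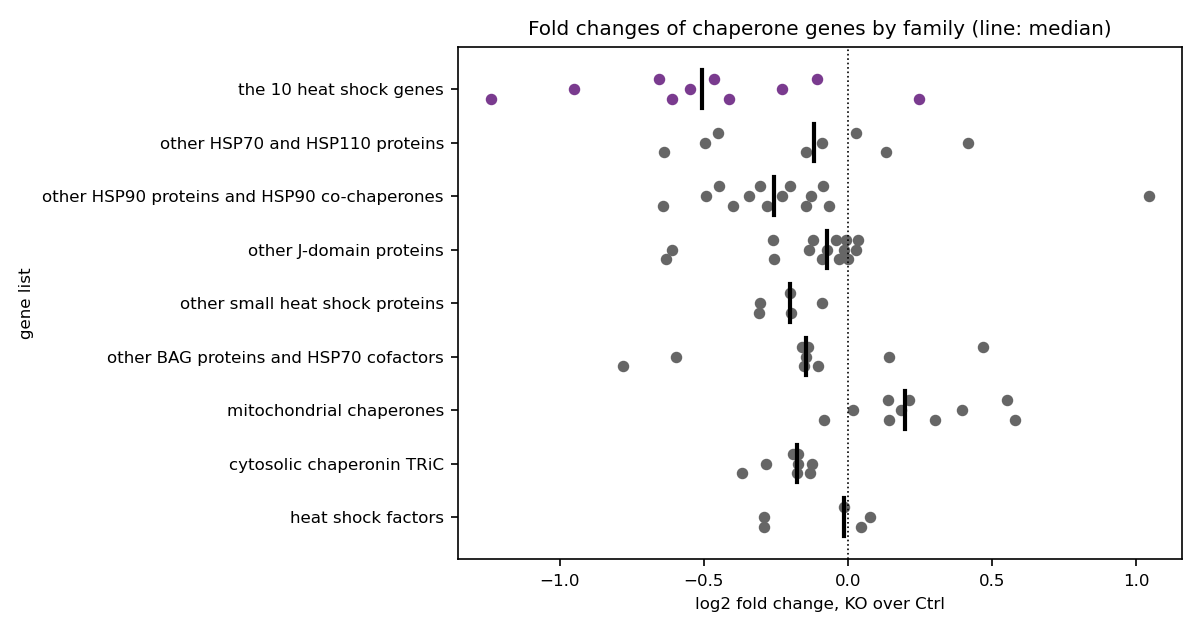
Log2 fold change (KO over Ctrl) of every tested gene in the 10 heat shock genes (purple, top) and in 8 other chaperone lists (grey), with the median as a line. The medians are -0.51 for the 10 genes, 0.20 for mitochondrial chaperones and between -0.26 and -0.01 for the other lists.

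Genes of at least 10 CPM were ranked by how closely their log2 CPM followed Hsph1 or Cryab over the 5 libraries, as a description. The closest to Hsph1 were Rbm45, Marf1, Ddx21, Nifk and Epb41l1, with Pearson r from 0.982 to 0.996 among 9652 genes. Rbm45, an RNA-binding protein, stood at 17.5 and 18.3 CPM in KO and at 16.7, 22.1 and 20.6 CPM in Ctrl libraries, a far smaller range than that of Hsph1. The closest to Cryab were Xpo7, Cct6a, Tmem33, Edem1 and Sf3b5, with r from 0.991 to 0.998, and Cct6a is itself a TRiC subunit. Xpo7 ranged only from 60.8 CPM (KO replicate 2) to 64.1 CPM (Ctrl replicate 2). All these values share the same 5 libraries and their scaling. With the closest genes picked from 9652 over 5 libraries, high r values can arise by selection alone.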

How the data were processed

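Poly(A) RNA of individually frozen aortae was sequenced with a stranded kit, per the labels. The authors deposited raw counts per gene, and the submitters' processing notes name fastp 0.20.0, STAR 2.7.0f, featureCounts of Subread 1.6.4 and the build GRCm38. The sources used here do not give the annotation, strand setting or treatment of multiply mapping reads. Genes of the 5 libraries were filtered by filterByExpr, scaled by TMM and tested in edgeR 4.0.16 (R 4.3.3) with its quasi-likelihood test and group as the one factor. Benjamini-Hochberg adjustment ran over 18192 genes, with a threshold of 0.05. Intervals use moderated degrees of freedom (3 residual plus 4.01 prior), and the common biological variation came to 15.8%. P-values reflect only how these 5 mice differ. Every pair of libraries differed by more than counting noise. DESeq2 1.42.0 and limma-voom (limma 3.58.1) were alternatives, beside other scalings, filters, blocks and omission of each library. The fits were also run on simulated counts, but no outcome is given here and no statement on these genes rests on that run. Coordinates and exon lengths come from GENCODE mouse release 21 (GRCm38), promoters from RefSeq.

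The members and lists were chosen with earlier results of these data known. Of each chaperone list, the 2 most abundant genes and the 2 of lowest p are named, and of each marker list the most abundant. Hspe1, Bag2 and the genes with low counts were named after their values were seen.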

Additional observations from a re-analysis of the deposited data

How the results depend on the processing

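Of 142 refits of single genes, 140 kept the direction and the side of the threshold. With libraries left out in turn Hspa1a ran from -1.016 (without Ctrl replicate 1) to 0.167 (without Ctrl replicate 3). With no low-count filter edgeR called 982 genes higher and 432 lower and 1 of the 10 (Hspb1, log2 fold change -1.22, adjusted p = 0.00292, against 0.0691 to 0.682 over its other alternatives). The cause was not tested. Over all genes, 524 were higher and 411 lower by DESeq2, and 1 was lower by limma-voom. With each library left out in turn, edgeR called 0 to 139 higher (139 without Ctrl replicate 2) and 0 to 9 lower, 0 to 1 of the 10 genes lay higher in KO without overlap, and 2 to 7 lay lower. Where KO replicate 2 or 3 was left out, the remaining KO library takes its spread from Ctrl.

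Whether replicate numbers pair the libraries could not be decided. Same-numbered deviations correlated at 0 (replicate 2) and -0.16 (replicate 3), and KO replicate 2 with Ctrl replicate 3 gave 0.16. With 2 KO mice, the deviations from the KO mean are equal and opposite, so these values are not independent. The replicate block gave 3 genes higher and 2 lower, none of them among the 10, and a median log2 fold change of -0.73 over the 10. Ctrl replicate 1 has no KO partner in this block, so these fold changes rest on replicates 2 and 3. With Ctrl replicate 1 left out and no block, the median was -0.77. A crossed replicate block, chosen after the data were seen, and a newer quasi-likelihood fit, also added then, called 0. The crossed block likewise leaves Ctrl replicate 1 without a partner. With 2 KO mice, differences of the size of the intervals given could not be resolved.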
